A study of Mus musculus with 8 samples.

Results

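The Hox C cluster is a row of 9 homeobox genes on mouse chromosome 15, Hoxc4, Hoxc5, Hoxc6, Hoxc8, Hoxc9, Hoxc10, Hoxc11, Hoxc12 and Hoxc13, of the 39 Hox genes in 4 clusters listed here. It was read on 8 Agilent arrays of inguinal white adipose tissue (iWAT), a subcutaneous depot of the groin. All 9 genes are members by name, and each was matched to 1 probe among 55681, with 1 spot an array, through the RefSeq accession that the scanner files give. The cluster was chosen by its known difference between the same 2 groups of arrays, so that difference is given for its members as a description, with no p-value.

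Senp2-aKO samples (4 arrays) came from mice of genotype Senp2flox/flox with Adipoq Cre, and control samples (4 arrays) from Senp2flox/flox mice. Senp2 encodes a protease that takes the small protein SUMO off other proteins, and the adiponectin promoter drives the Cre in adipocytes, so the other cells of the pad keep the gene. Both groups carried the floxed alleles, began a diet with 58 kcal% fat at 8 weeks of age, ate it for 12 weeks and were housed at 22 to 24 °C. The labels do not say whether the controls were littermates, and the series asks whether Senp2 loss turns white fat towards a heat-producing state.

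Hox genes encode transcription factors that tell cells where along the body axis they lie. Within a cluster the order of the genes follows the order of their domains, from Hoxc4 in the neck and upper trunk to Hoxc13 at the tail end and in hair and nails, and fat pads keep a Hox pattern of their own into adult life. Inguinal fat is known for its Hoxc genes: Hoxc9 is used to tell subcutaneous from interscapular brown fat, Hoxc10 has been reported to restrain browning of mouse subcutaneous fat, and Hoxc8 has been reported to repress Cebpb, which encodes C/EBPβ, the factor this series is about.

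The cluster also holds noncoding genes. RefSeq (GRCm38.p6) lists 5 genes between Hoxc13 and Hoxc4 that are not Hox genes, namely Hotair, Gm36878, Gm29905, Mir196a-2 and Mir615, and 0 of them had a probe. The mature miR-196a is shown because it is made from a gene between Hoxc10 and Hoxc9 and is known in mouse fat as a repressor of Hoxc8. It is given in RNA letters from RefSeq (GRCm38.p6, chr15:102973365-102973386, plus strand), and capitals mark the seed, bases 2 to 8, that pairs with targets.
mmu-miR-196a-5p: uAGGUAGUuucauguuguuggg

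Of the 9 genes 1, Hoxc4, had an entry in the RefSeq promoter table (GRCm38.p6, chr15:103034145-103034444, plus strand, 250 bases before the start and 50 after). It is shown because the series concerns C/EBPβ, and capitals mark the only match to the C/EBP letters TTGCNNAA, which lies on the minus strand at bases 281 to 288 of the window, inside the transcribed part.
Hoxc4 promoter: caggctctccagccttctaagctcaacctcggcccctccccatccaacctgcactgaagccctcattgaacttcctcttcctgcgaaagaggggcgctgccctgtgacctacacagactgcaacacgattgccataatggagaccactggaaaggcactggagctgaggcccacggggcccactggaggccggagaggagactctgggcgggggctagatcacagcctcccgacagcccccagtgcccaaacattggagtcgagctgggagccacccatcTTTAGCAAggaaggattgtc
Searched on both strands, TTGCNNAA was present in 10.8% of 32851 promoter windows of 300 bases. The Hoxc4 window held no TGATNNAT, a Pbx and Hox sequence present in 8.8% of windows, and no TATAAA, the TATA box, present in 13.6%. A match of letters is not a bound site.

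All 8 arrays lay on 1 slide, controls in one row and Senp2-aKO arrays in the other, and an effect of the row cannot be told apart from one of genotype. Unscaled, the 75th percentile lay at 324 to 382 on Senp2-aKO arrays and 408 to 446 on control arrays, and probes well above background numbered 29413 to 31091 and 30393 to 31497. Signal was therefore scaled: the log2 level of a gene is its log2 processed signal minus that of the array's 75th percentile, so a level of 0 equals that percentile. Levels are compared between arrays, for 1 probe or the same set of probes. A difference in level between probes is not read as one of RNA amount. The 10 adipocyte markers were all measured, with a mean log2 level of 7.54 ± 0.18 in Senp2-aKO samples and 7.61 ± 0.14 in controls (SD, n = 4 each), as the tissue label says. Single adipocyte markers differed between the groups by log2 fold changes from -1.85 to 0.44, with 2 of 10 below 0. Skeletal muscle markers were higher on every Senp2-aKO array, and 1 array, aKO 2, stood apart in lymphocyte markers; both are set beside the Hox values below.

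The expressed part of the cluster held 6 genes. Hoxc4, Hoxc5, Hoxc6, Hoxc8, Hoxc9 and Hoxc10 were well above background on all 8 arrays, and Hoxc11, Hoxc12 and Hoxc13 were not above background on any Senp2-aKO array. The 6 had lower means in Senp2-aKO samples, from 25.1% of control for Hoxc10 to 69.1% for Hoxc4. In bulk tissue, fewer cells that express a gene and less RNA per cell cannot be told apart.

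**Figure D1:**
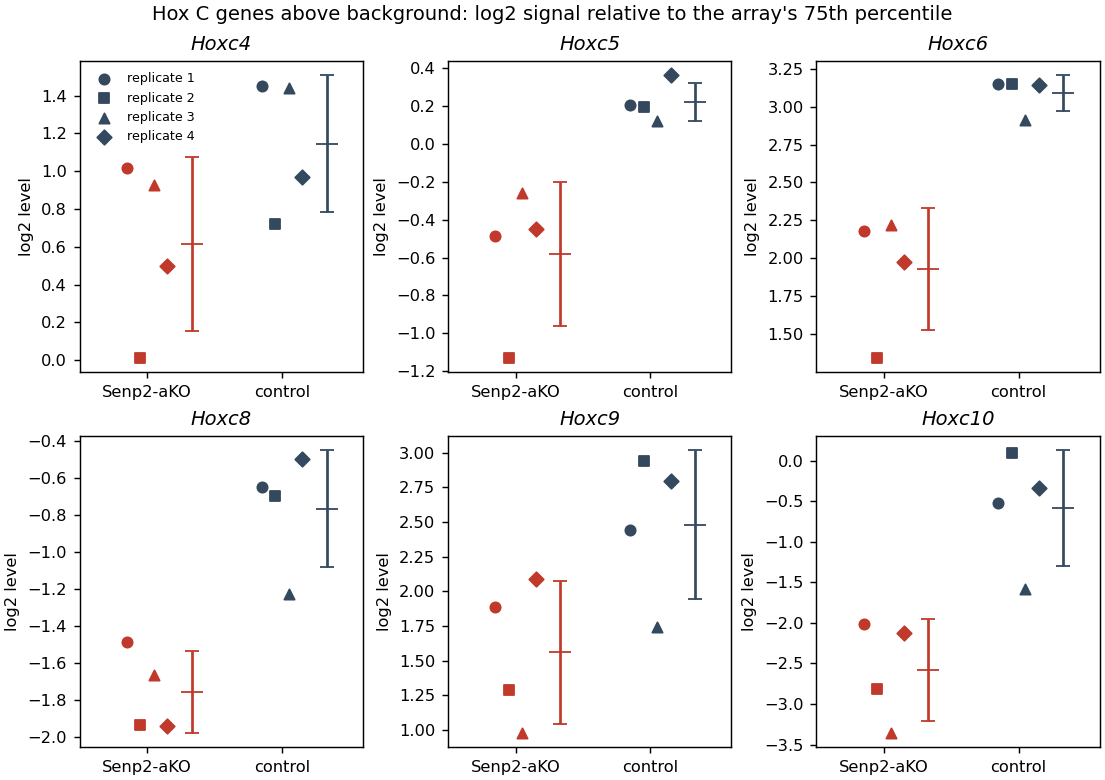
Log2 level of the 6 Hox C genes above background on each array (y axis, log2 signal relative to the array's 75th percentile; scales differ between panels), Senp2-aKO in red on the left and control in dark blue on the right. Bars give the mean ± SD of 4 arrays, and the groups do not overlap for Hoxc5, Hoxc6, Hoxc8 and Hoxc10.

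Hoxc4, known also as a regulator of antibody gene diversification in B lymphocytes, had log2 levels of 1.02, 0.01, 0.93 and 0.50 on Senp2-aKO arrays 1 to 4, against 1.45, 0.72, 1.44 and 0.97 on control arrays 1 to 4. The groups overlapped, with aKO 1 and aKO 3 above control 2. The log2 fold change was -0.53 (SE 0.26), or 69.1% of control (95% interval 45.7 to 105).

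Hoxc5, a gene of the neck and upper trunk, had log2 levels of -0.48, -1.13, -0.26 and -0.45 on Senp2-aKO arrays, against 0.21, 0.20, 0.12 and 0.36 on control arrays. All 4 Senp2-aKO values lay below the controls, which were close together, and aKO 2 was the lowest. Its log2 fold change was -0.80 (SE 0.18), or 57.4% of control (95% interval 42.9 to 76.7).

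Hoxc6, expressed in the trunk and known for a part in mammary gland development, had log2 levels of 2.18, 1.35, 2.22 and 1.98 on Senp2-aKO arrays, against 3.15, 3.15, 2.91 and 3.15 on control arrays. The gap between the groups was 0.69, the widest of the 6 genes, and aKO 2 was again the lowest. The log2 fold change was -1.16 (SE 0.19), or 44.8% of control (95% interval 32.9 to 61.0).

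Hoxc8, the miR-196a target named above, had log2 levels of -1.49, -1.93, -1.66 and -1.94 on Senp2-aKO arrays, against -0.65, -0.70, -1.22 and -0.50 on control arrays. The groups were 0.26 apart, and control 3 was the control nearest to them. Its log2 fold change was -0.99 (SE 0.18), or 50.4% of control (95% interval 37.9 to 67.0).

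Hoxc9, the subcutaneous fat marker, had log2 levels of 1.89, 1.29, 0.98 and 2.09 on Senp2-aKO arrays, against 2.45, 2.94, 1.74 and 2.80 on control arrays. Control 3 lay below aKO 1 and aKO 4, so the groups overlapped. The log2 fold change was -0.92 (SE 0.33), or 52.9% of control (95% interval 31.4 to 88.9).

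Hoxc10, the most caudal of the expressed genes, had log2 levels of -2.01, -2.81, -3.36 and -2.13 on Senp2-aKO arrays, against -0.53, 0.10, -1.58 and -0.34 on control arrays. The groups were 0.43 apart, and replicate 3 was the lowest array of each group. Its log2 fold change was -1.99 (SE 0.41), or 25.1% of control (95% interval 13.0 to 48.5), the lowest of the 6. As signal before scaling, Hoxc10 was read at 80.5, 51.1, 37.3 and 75.2 on Senp2-aKO arrays, against 283, 439, 149 and 326 on control arrays. The lowest signals called well above background were 13.2 to 15.5 on Senp2-aKO arrays and 13.1 to 15.6 on controls, so the Senp2-aKO readings of Hoxc10 were near the dim end of the scale. With another background model (normexp with an offset of 50, then quantile normalisation), the log2 fold change of Hoxc10 was -1.32 (SE 0.26), or 40.0% of control in place of 25.1%.

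In the limma fit across 14729 named genes, in which a gene was called at a Benjamini-Hochberg adjusted p under 0.05, 4 of the 6 measured members were called lower (Hoxc5, Hoxc6, Hoxc8 and Hoxc10), beside 7.12% of all genes. None of the 6 was called higher, beside 7.29% of all genes, and the same 4 were those whose Senp2-aKO arrays all lay below all controls, beside 15.1% of all genes. These counts describe a cluster chosen from the same comparison and support nothing by themselves. The median log2 fold change was -0.95 over the 6 and -0.02 over all genes tested. Hoxc10 ranked 51st from the lowest of 14729 fold changes and Hoxc6 287th. The number called lower changed when 1 array was left out. It was 2 (Hoxc6 and Hoxc8) without control 1 and without control 4. It was 3 without aKO 1, aKO 4, control 2 or control 3, in each of which the Hoxc5 call ended. Without aKO 2 or aKO 3 it was 4. Calls over all 14729 genes moved too: 1049 were lower with all arrays, 280 without control 1 and 529 without control 4. The count over all genes was 606, 531, 495 and 406 without aKO 1, aKO 4, control 2 and control 3. It was 1472 and 1249 without aKO 2 and aKO 3. All 6 log2 fold changes stayed below 0 in each of the 8 omissions.

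The silent end of the cluster gave single readings. Hoxc11, a gene of the posterior trunk and hindlimb, had signals of 3.28 to 3.71 on Senp2-aKO arrays, against 4.72, 6.15, 55.5 and 6.49 on control arrays, and only the 55.5 of control 3 was well above background. Hoxc12, a caudal gene also active in hair follicles, had signals of up to 19.6 on Senp2-aKO arrays and up to 19.4 on control arrays, well above background on 1 control array. Hoxc13, which is required for hair and nails, had signals of 3.44 to 10.1 on Senp2-aKO arrays and 3.22 to 3.97 on control arrays and was above background on 0 of 8. No fold is given for these 3 genes.

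**Figure D2:**
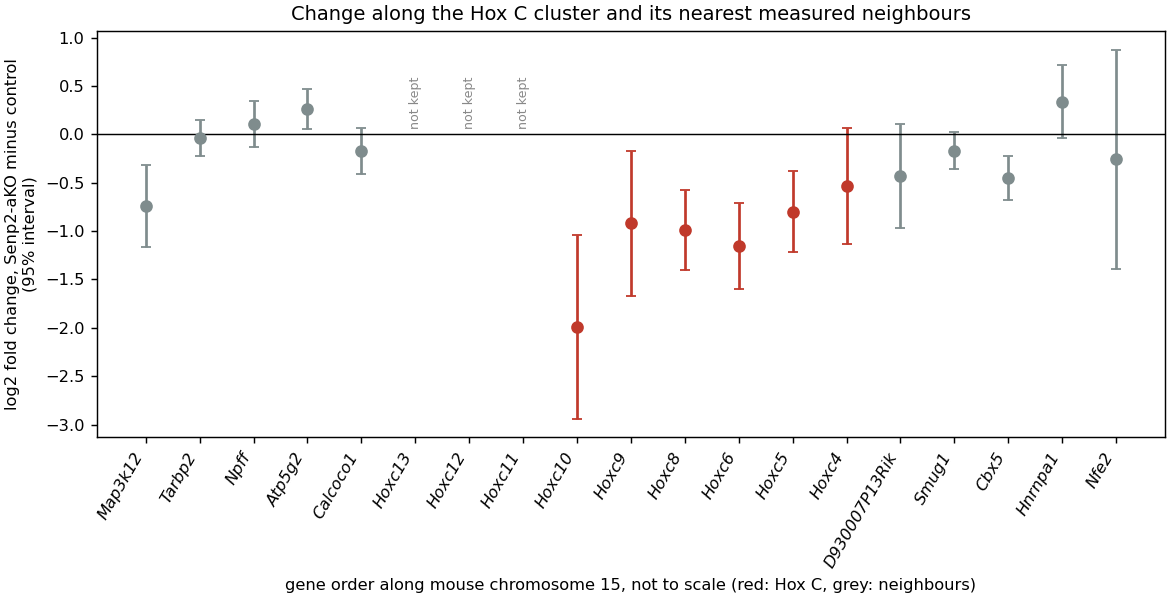
Log2 fold change, Senp2-aKO minus control (y axis, bars are 95% intervals from limma, n = 4 per group), for the Hox C genes in red and the 5 nearest measured genes on each side in grey, in chromosome order and not to scale. The 6 Hox C values lie between -1.99 and -0.53, and those of the neighbours between -0.74 and 0.34.

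Along the cluster, the log2 fold changes ran -0.53, -0.80, -1.16, -0.99, -0.92 and -1.99 from Hoxc4 to Hoxc10, so the smallest value was at the Hoxc4 end and the largest at the last expressed gene, with no steady order between. Hoxc10 was also set against the other 5 within arrays, where the scaling of an array cancels. Its log2 level minus the mean of the other 5 was -2.63, -2.73, -3.80 and -2.57 on Senp2-aKO arrays, against -1.85, -1.16, -2.58 and -1.69 on control arrays. The mean of that difference was -2.93 ± 0.58 in Senp2-aKO samples and -1.82 ± 0.58 in controls (SD, n = 4 each), with control 3 among the Senp2-aKO arrays. This difference between the groups of -1.11, which was not tested, was -0.55 with the normexp background and 0.09 with the muscle covariate described below.

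The arrays of a group differed from each other in 2 patterns. Deviations from the group mean went together for Hoxc9 and Hoxc10 (r = 0.98) and for Hoxc5 and Hoxc6 (r = 0.94), over 8 arrays that share their scaling. Hoxc4 followed Hoxc6 (r = 0.63) and ran against Hoxc9 and Hoxc10 (r = -0.33 and -0.32), while Hoxc8 lay between, at 0.61 with Hoxc6 and 0.56 with Hoxc10. In aKO 3 the genes at the 2 ends of the expressed part parted: Hoxc4, Hoxc5 and Hoxc6 were 0.29 to 0.32 above their Senp2-aKO means, and Hoxc9 and Hoxc10 were -0.58 and -0.78 from theirs. On control 3 only Hoxc4 was above its control mean, by 0.30. Hoxc5 and Hoxc6 were -0.10 and -0.18 from theirs, and Hoxc8, Hoxc9 and Hoxc10 were -0.46, -0.74 and -0.99 from theirs.

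**Figure D3:**
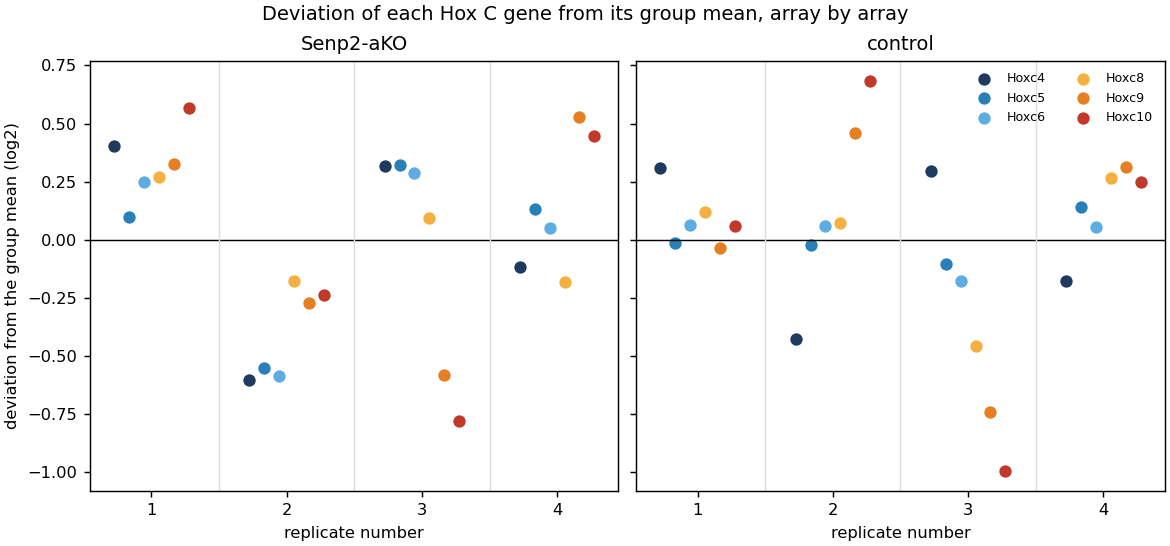
Deviation of each of the 6 Hox C genes from the mean of its own group (y axis, log2) on each array (x axis, replicate number), Senp2-aKO left and control right. Blue points are Hoxc4 to Hoxc6 and yellow to red points Hoxc8 to Hoxc10; on aKO 2 all 6 are below 0, and on replicate 3 of each group Hoxc9 and Hoxc10 are the lowest points.

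Genes that act as muscle, immune or progenitor markers moved on the same arrays. The mean log2 level of 18 skeletal muscle markers was 2.86, 3.45, 4.09 and 3.74 on Senp2-aKO arrays, against -1.63, -1.54, 1.45 and 0.70 on control arrays, with no overlap (exact permutation p = 0.0286, two-sided, the smallest that 4 against 4 arrays allow), and 13 of the 18 were called higher. The arrays with the highest muscle mean in each group, aKO 3 and control 3, were also those with the lowest Hoxc9 and Hoxc10. The arrays next in muscle mean, aKO 4 and control 4, were not low: Hoxc9 was 2.09 and 2.80 and Hoxc10 was -2.13 and -0.34. With that mean as a covariate the log2 fold changes of Hoxc4, Hoxc5 and Hoxc6 were -0.71 (SE 0.59), -0.89 (SE 0.41) and -0.99 (SE 0.43). Those of Hoxc8, Hoxc9 and Hoxc10 were -0.56 (SE 0.36), -0.03 (SE 0.64) and -0.55 (SE 0.71). In that fit 0 of the 6 were called, beside 0 called lower and 1 called higher of all 14729 genes, so the 0 is not particular to Hox C. The covariate separates the groups, which widens the errors, so the part of muscle in these values cannot be told apart from that of genotype.

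**Figure D4:**
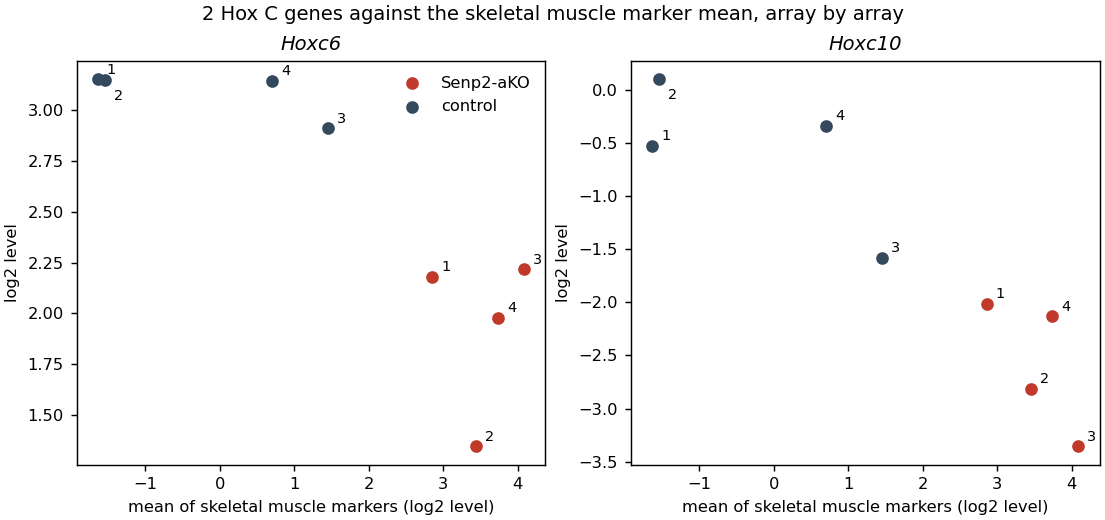
Log2 level of Hoxc6 (left) and Hoxc10 (right) on the y axis against the mean log2 level of 18 skeletal muscle markers on the x axis, 1 point an array, numbered by replicate, Senp2-aKO red and control dark blue. Senp2-aKO arrays lie at muscle means of 2.86 to 4.09 and controls at -1.63 to 1.45. Within controls, Hoxc10 is lowest on array 3, which has the highest muscle mean, and is -0.34 on array 4, the next in muscle mean.

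B lymphocyte markers averaged 1.63 on aKO 2 and -3.35 to -3.06 on the other Senp2-aKO arrays, against -3.54 to -0.91 on controls, and aKO 2 had the lowest Hoxc4, Hoxc5 and Hoxc6 of all arrays. Without aKO 2 their log2 fold changes were -0.33, -0.62 and -0.96. Control 1, next in B lymphocyte mean at -0.91, had Hoxc4, Hoxc5 and Hoxc6 at 1.45, 0.21 and 3.15, the highest Hoxc4 and Hoxc6 of all arrays by a small margin. Markers of adipose progenitors, the cells that give rise to adipocytes, averaged 2.90 ± 0.17 in Senp2-aKO samples and 2.47 ± 0.09 in controls (SD, n = 4 each, exact permutation p = 0.0286). Of these 10, 3 were called higher and 0 lower, with log2 fold changes from -0.94 to 1.23, 2 of them below 0. Of 6 skin markers, 4 were measured and averaged -2.48 ± 0.06 in Senp2-aKO samples and -3.11 ± 0.21 in controls (exact permutation p = 0.0286, n = 4 each). Of these 4, 2 were called higher, with log2 fold changes from 0.07 to 1.37. Of 7 mammary markers, 1 was measured, Krt18, and averaged 0.05 ± 2.08 in Senp2-aKO samples and -2.76 ± 0.37 in controls, with overlap (exact permutation p = 0.114, n = 4 each). Endothelial, macrophage, smooth muscle and T lymphocyte means overlapped too (differences -0.11, -0.11, 0.29 and 0.43). Single genes went both ways among smooth muscle markers (log2 fold changes -0.73 to 2.27, 3 of 5 below 0) and macrophage markers (-1.71 to 1.04, 3 of 7 below 0). In a fit that included the B lymphocyte level of each array, the log2 fold changes from Hoxc4 to Hoxc10 were -0.50, -0.74, -1.10, -0.96, -0.86 and -1.93. The same 4 Hox C genes were called lower in it, beside 1693 of all 14729 genes, against 1049 without that level. The part of the other cell types of this paragraph in the Hox C values was not tested.

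The genes around the cluster were tested in the same fit, since they were chosen by position alone. Of the 10 nearest measured neighbours, 5 on each side, 2 were called lower and 0 higher, beside 7.12% and 7.29% of all genes, and 3 had an unadjusted p under 0.05. Cbx5, which encodes the heterochromatin protein HP1α and lies beyond Hoxc4 after D930007P13Rik and Smug1, fell to a mean log2 level of -0.08 ± 0.10 in Senp2-aKO samples, against 0.37 ± 0.13 in controls (SD, n = 4 each, log2 fold change -0.45, SE 0.10, limma adjusted p = 0.0238). A second Cbx5 probe gave -0.14 (SE 0.16), and the mean of both was not called (adjusted p = 0.117; 0.0113 to 0.839 over 19 alternatives). Map3k12, a kinase of the neuronal stress response and the fifth gene beyond Hoxc13, averaged -3.94 ± 0.38 in Senp2-aKO samples and -3.20 ± 0.12 in controls (-0.74, SE 0.19, adjusted p = 0.0344), with a call in 9 of 18 alternatives.

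The measured genes nearest to the cluster were not called. Calcoco1, an autophagy receptor and the nearest measured gene beyond Hoxc13, differed by -0.17 (SE 0.10, limma adjusted p = 0.285). D930007P13Rik, the nearest measured gene beyond Hoxc4, differed by -0.43 (SE 0.23, adjusted p = 0.237). Smug1, which encodes a DNA repair glycosylase, had -0.17 (SE 0.08, adjusted p = 0.204). The other 5 ranged from -0.26 for Nfe2, a transcription factor of red blood cell precursors, to 0.34 for Hnrnpa1, a splicing factor.

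The other Hox clusters gave a mixed picture. Of 30 Hox A, Hox B and Hox D genes, 20 were measured, 3 were called lower and 0 higher, beside 7.12% and 7.29% of all genes, with a median log2 fold change of -0.10. Hoxb5 fell on all 4 Senp2-aKO arrays, with levels of -1.19, -1.35, -1.25 and -1.52, against -0.39, 0.09, -0.45 and 0.06 on control arrays (log2 fold change -1.16, SE 0.15, limma adjusted p = 0.00573). Hoxb3 averaged -2.26 in Senp2-aKO samples and -1.33 in controls (-0.93, SE 0.18, adjusted p = 0.0153), although its second probe gave -0.22 (SE 0.23). Both belong to the Hox B cluster, of which 2 of 8 measured genes were called lower.

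Hoxa10, which shares its paralogue number with Hoxc10 and is known for its part in the uterus and hindlimb, had levels of -1.93, -2.74, -3.43 and -1.75 on Senp2-aKO arrays, against -1.17, -0.17, -1.49 and -0.69 on control arrays. Its log2 fold change was -1.58 (SE 0.42, limma adjusted p = 0.0415), and replicate 3 was the lowest of each group, as for Hoxc10. The Hoxa10 call held in 1 of 8 omissions of an array (adjusted p from 0.0476 to 0.0964). It was 1 of 9 measured Hox A genes called. Of 3 measured Hox D genes 0 were called and 0 had an unadjusted p under 0.05, with values from 0.07 to 0.28.

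**Figure D5:**
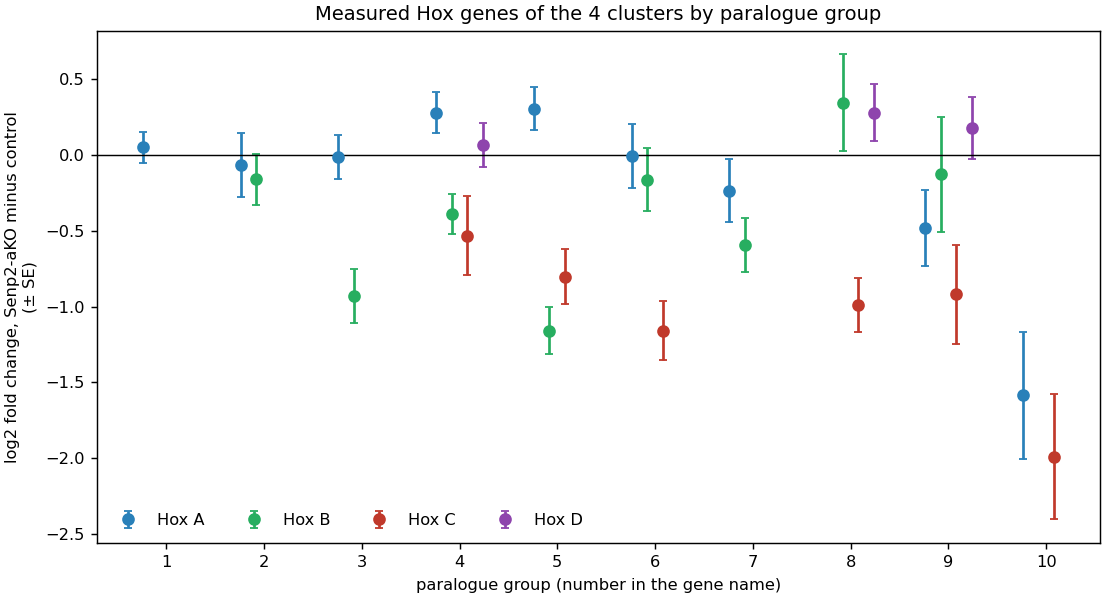
Log2 fold change, Senp2-aKO minus control (y axis, bars are ± SE, n = 4 per group), of the 26 measured Hox genes by paralogue group (x axis), coloured by cluster. In 5 of the 6 groups with a measured Hox C gene, that gene has the lowest value, and in group 5 Hoxb5 is lower. The Hox C cluster was chosen from this same comparison.

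Genes of 1 paralogue number descend from 1 ancestor and have similar proteins. In group 8, Hoxb8, Hoxc8 and Hoxd8 had log2 fold changes of 0.35, -0.99 and 0.28. In group 6, Hoxa6, Hoxb6 and Hoxc6 had -0.01, -0.16 and -1.16, and in group 9, Hoxa9, Hoxb9, Hoxc9 and Hoxd9 had -0.48, -0.13, -0.92 and 0.18. The Hox C gene had the lowest value in 5 of 6 groups, Hoxb5 (-1.16) being lower than Hoxc5 (-0.80). The cluster was chosen from this same comparison, so that count supports nothing by itself. Hoxc4 (-0.53, SE 0.26) lay near Hoxb4 (-0.39, SE 0.13), and Hoxc10 (-1.99, SE 0.41) near Hoxa10 (-1.58, SE 0.42). The differences between paralogues were not tested.

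Proteins that work with Hox factors, or set the state of Hox genes, were followed as whole lists. The Pbx, Meis and Pknox proteins bind DNA beside Hox proteins, and of 8 measured genes 0 were called, with a median of -0.09 (at an unadjusted p under 0.05, Pknox1 was higher and Pbx2 lower). Pbx3 and Pknox2, the next by p, differed by -0.16 and 0.32 (limma adjusted p = 0.308 and 0.312). Trithorax complexes keep Hox genes active, and 0 of 9 measured genes were called (unadjusted p under 0.05 for 1 higher, Wdr5, and 1 lower, Rbbp5), Wdr5, a shared subunit, being nearest (0.30, SE 0.09, adjusted p = 0.0549).

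Polycomb complexes keep Hox genes silent, and of 26 measured genes 4 fell and 1 rose, beside 7.12% and 7.29% of all genes, with a list median of -0.07. Cbx8, a reader of the repressive mark, fell to -2.27 ± 0.13 in Senp2-aKO samples, against -1.25 ± 0.14 in controls (SD, n = 4 each, log2 fold change -1.02, SE 0.11, limma adjusted p = 0.00367). Cbx6, another such reader, had -0.53 (SE 0.12, adjusted p = 0.0259). Bmi1, a core subunit, had -0.30 (SE 0.08, adjusted p = 0.0393), and Ring1, chosen after its value was seen, rose (0.31, SE 0.09, adjusted p = 0.0477). Cbx8 was called in each of 8 omissions of an array, Cbx6 in 3 and Bmi1 in 1. With the mean of all kept probes of a gene, Cbx6 (-0.40, adjusted p = 0.0717) and Bmi1 (-0.19, adjusted p = 0.164) were not called. The core genes of the methylating complex, Ezh2, Eed and Suz12, named after their values were seen, were not called, at -0.37, 0.12 and 0.04.

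Other factors that mark the place or depot of a fat pad changed both ways. Of 18 measured, 4 rose and 3 fell, beside 7.29% and 7.12% of all genes, with a median of -0.24. Irx1 and Irx2, homeobox neighbours of each other on another chromosome, rose. Irx1 had levels of 2.11, 2.35, 1.65 and 0.26 on Senp2-aKO arrays, against -2.04, -0.54, -1.65 and -0.57 on control arrays (log2 fold change 2.80, SE 0.52, limma adjusted p = 0.0146), and Irx2 had 2.69 (SE 0.47, adjusted p = 0.0124). Tbx15, a factor whose level is known to differ between fat depots, rose as well (0.76, SE 0.16, adjusted p = 0.0194). Meox2, a trunk mesoderm factor, fell on all 4 Senp2-aKO arrays (-1.07, SE 0.13, adjusted p = 0.00452). The remaining called genes, named after their values were seen, were Irx3 (0.81), Prrx1 (-0.87) and Prrx2 (-1.52).

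By likeness of level over the 8 arrays, the genes nearest to Hoxc10 among 14728 others were Nsun6 (r = 0.98), Pithd1 (0.97), Hoxa10 (0.97), 9330159M07Rik (0.96) and Tfcp2 (0.96). Such values rest largely on the difference between the groups, which the arrays share. By deviation from the group means, which leaves that difference out, the nearest were Hoxc9 (r = 0.98), Net1 (0.97), Rrp36 (0.97), Ndufa6 (0.97) and Negr1 (0.97), and Hoxa10 stood at 0.93. Net1 and Ndufa6 were higher in Senp2-aKO samples (limma adjusted p = 0.0153 and 0.0222), so their deviations ran with those of Hoxc10 and their group difference the other way. Both lists hold the largest of 14728 correlations over 8 arrays. How high the largest would be by chance was not tested.

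Values of the genes this series turns on stood beside the cluster as follows. Senp2 differed by -0.27 on the log2 scale (SE 0.08, limma adjusted p = 0.0507), all 4 Senp2-aKO arrays below the controls, and Cebpb by 0.79 (SE 0.19, adjusted p = 0.0332; called in 3 of 8 omissions). Ucp1, which makes heat, rose on all 4 Senp2-aKO arrays (6.36, SE 0.59, adjusted p = 0.00329), and Prdm16, the brown fat regulator that Hoxc10 has been reported to repress, was not called (-0.10, SE 0.26, adjusted p = 0.827).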

How the data were processed

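Expression was measured on 1-colour Agilent arrays (Cy3) in 4 Senp2-aKO and 4 control iWAT samples. The authors used Agilent Feature Extraction 11.5.1, per the submitters' processing notes. Per the file headers, the deposited processed signal is an intensity, background-subtracted and detrended within each array and not scaled across them; median signal and local background are intensities too. The deposited flags per spot (well above background, outlier, saturated) have another unit, as they take the value 0 or 1. A deposited matrix was not used, as its 8 sample columns match no label.

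The log2 processed signal was set relative to its array's 75th percentile, outlier spots were left out and spots of a probe averaged. Kept probes (30507) were well above background on at least 4 of 8 arrays, whatever the group. RefSeq accessions named 27656 of 55681 probes, and the kept probe with the highest mean stood for its gene (14729 genes). No array depth exists as in sequencing; the number of arrays limits the precision.

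Tests used limma 3.58.1 in R 4.3.3; genes were called at a Benjamini-Hochberg adjusted p under 0.05, and tested on simulated data. Nothing says whether samples came from separate mice beyond their numbering, so p-values measure the spread between these samples. The members, lists and tests were chosen with earlier results of these data known. Named were all members, the 5 nearest measured genes each side, up to 4 genes a list by smallest p, and 5 genes each by 2 measures of likeness to Hoxc10. Alternatives covered scaling, background, filter, probe choice, replicate block, weights, covariates and each array left out. One gene that the naming rule picks is not reported here.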

Additional observations from a re-analysis of the deposited data

Results flagged for a closer look

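In 6 of 38 groups of 4 values, 1 array stood apart from the other 3; chance alone marks about 1 group in 20. Hoxc6 was lowest on control 3 (log2 level 2.91), beside 3 controls within a narrow span at 3.15. Hoxc11 was highest on control 3 (-3.01), its only reading well above background. Hoxc12 on aKO 1 (-4.05) and Hoxc13 on aKO 4 (-5.03) were highest among Senp2-aKO arrays, both not well above background. The B and T lymphocyte marker means were highest on aKO 2, at 1.63 and 2.36, where Hoxc4, Hoxc5 and Hoxc6 were lowest. Control 1, next in both means, had the highest Hoxc4 and Hoxc6.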

How the results depend on the processing

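All 6 Hox C log2 fold changes stayed below 0 in 19 alternatives, 8 of which left out 1 array. The count of Hox C genes called lower was 4, except 0 with the muscle covariate and 2 to 4 without 1 array, and 0 were called higher in any alternative. The log2 fold change ranged from -2.32 to -0.55 for Hoxc10, -1.17 to -0.03 for Hoxc9 and -1.14 to -0.56 for Hoxc8, the upper end being the muscle covariate in each, and from -1.25 to -0.96 for Hoxc6, -0.91 to -0.62 for Hoxc5 and -0.71 to -0.33 for Hoxc4. Hox A, B and D genes called lower numbered 3, against 4 with quantile normalisation, normexp or array weights, 2 with no filter or the mean of all kept probes, 0 with the muscle covariate and 1 to 3 without 1 array (1 without control 1); called higher were 0 throughout. Neighbours called lower numbered 2, against 1 with normexp, with no filter, with a filter on all 8 arrays and with the mean of all kept probes, 0 with the muscle covariate and 0 to 2 without 1 array (0 without aKO 4, control 1 or control 2, 1 without control 3 or control 4). Neighbours called higher were 0, and 1 (Atp5g2, a subunit of ATP synthase) with array weights, with the B lymphocyte covariate and without aKO 2 (0 to 1 over the omissions). Whether the replicate numbers pair the samples is not known. Deviations of same-numbered arrays correlated at -0.02, -0.08, 0.14 and 0.11, and 2 of 4 Senp2-aKO arrays matched the control of their own number best. With the replicate block 4 Hox C genes were called lower, Hoxc4 in place of Hoxc5, with 0 neighbours and 3 other Hox genes lower. The SEs from Hoxc4 to Hoxc10 were 0.10, 0.17, 0.20, 0.19, 0.21 and 0.25 with the block, against 0.26, 0.18, 0.19, 0.18, 0.33 and 0.41 as reported. Genes called lower over all genes numbered 1049, and 0 (muscle covariate) to 1933 (array weights) over the alternatives. The causes were not tested. Dim signal limits Hoxc8 and Hoxc10, and 1 probe a gene leaves the Hox C values without a second reading.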
